A study of Mus musculus with 6 samples.

Results

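CpG islands are short stretches of DNA that are rich in G and C and keep many CpG dinucleotides, and the peaks described here are the accessible islands that the deposited annotation placed away from transcription start sites (TSSs). A peak was taken where it was annotated as intronic or intergenic, where its detailed annotation was a CpG island, and where it lay more than 3000 bp from the nearest listed TSS. Of 175929 peaks in the table, 122399 lay more than 3000 bp from a TSS and are termed distal, and 1111 of these met the other conditions as well. They are called distal island peaks below, and the other 121288 distal peaks served as the comparison.

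The assay was ATAC-seq, which reads where a transposase can cut and so maps open chromatin. The cells were mouse leukaemia cells that carried the AML1/ETO 9a (AE9a) oncogene, a truncated form of the t(8;21) fusion protein, and all of them were Usp18+/f UBCER-Cre, so that control cells carried the floxed allele and the Cre as well. Usp18 encodes an isopeptidase that removes ISG15 from proteins and restrains type I interferon signalling, and UBCER-Cre is a recombinase driven by the ubiquitin C promoter in every tissue and switched on by tamoxifen. According to the study's methods, haematopoietic cells of these mice were transduced with an AE9a-GFP retrovirus and transplanted. Once recipients were ill they received oil (Usp18+/f, replicates 1, 2 and 4) or tamoxifen (Usp18+/Δ, replicates 1, 3 and 4), and GFP-positive, lineage-negative, c-Kit-positive spleen cells were sorted 3 days after the first injection. No sample here received tamoxifen without a floxed allele, so the drug and the loss of 1 Usp18 allele cannot be told apart. The study's methods name mice as the replicates of the sorted spleen cells, with one set going to ATAC-seq, but elsewhere state fewer ATAC-seq replicates than there are libraries per group. The labels do not tie a library to a mouse, so the p-values measure the spread between libraries, which may be in part technical. By the methods all mice were young adults of both sexes, and the labels give neither age nor sex per library.

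Most mammalian promoters of widely used genes lie in CpG islands, which are usually kept free of DNA methylation and of tightly placed nucleosomes. Islands far from annotated promoters, often called orphan islands, can be the starts of unlisted or alternative transcripts, or parts of regulatory elements of developmental genes. Unmethylated CpGs are bound by proteins with a CXXC domain, such as KDM2B, which brings a Polycomb complex containing BCOR to islands, and CFP1, which brings a histone H3 lysine 4 methyltransferase.

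The sequences of 6 distal island peaks are given because they carry the main contrast, namely 3 peaks that gained accessibility with tamoxifen and 3 of the most accessible peaks, whose values overlapped between the groups. All are the plus strand of mm10, read 5′ to 3′, with each CpG dinucleotide in capitals. The peaks near Rps24, Phtf2 and Pdxk-ps are the ones that rose.
Rps24 peak, chr14:24779088-24779362: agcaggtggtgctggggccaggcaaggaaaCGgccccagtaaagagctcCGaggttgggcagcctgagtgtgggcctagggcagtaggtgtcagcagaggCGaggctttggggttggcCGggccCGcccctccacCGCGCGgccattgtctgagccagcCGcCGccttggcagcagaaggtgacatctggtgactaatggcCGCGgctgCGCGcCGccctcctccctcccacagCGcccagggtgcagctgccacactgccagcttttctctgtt
Phtf2 peak, chr5:20701943-20702186: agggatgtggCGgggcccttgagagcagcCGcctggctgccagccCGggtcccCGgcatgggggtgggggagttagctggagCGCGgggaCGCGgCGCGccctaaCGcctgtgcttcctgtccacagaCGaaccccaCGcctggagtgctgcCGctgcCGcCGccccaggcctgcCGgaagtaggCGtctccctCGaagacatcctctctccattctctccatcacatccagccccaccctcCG
Pdxk-ps peak, chr17:32113627-32113884: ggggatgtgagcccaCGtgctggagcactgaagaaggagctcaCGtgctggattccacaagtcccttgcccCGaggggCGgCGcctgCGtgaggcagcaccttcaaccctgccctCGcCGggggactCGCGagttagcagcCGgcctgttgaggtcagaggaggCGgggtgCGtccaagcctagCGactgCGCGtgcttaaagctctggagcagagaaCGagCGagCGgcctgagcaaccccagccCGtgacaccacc
The peaks near Glis2, Wnt7b and Zfp395 were among the 8 with the most tags per kilobase (kb) in oil.
Glis2 peak, chr16:4586680-4586887: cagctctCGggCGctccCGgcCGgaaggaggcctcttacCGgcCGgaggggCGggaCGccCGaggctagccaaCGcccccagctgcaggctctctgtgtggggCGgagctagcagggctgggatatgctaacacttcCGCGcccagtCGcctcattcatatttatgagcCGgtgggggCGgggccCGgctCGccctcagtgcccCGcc
Wnt7b peak, chr15:85634612-85634817: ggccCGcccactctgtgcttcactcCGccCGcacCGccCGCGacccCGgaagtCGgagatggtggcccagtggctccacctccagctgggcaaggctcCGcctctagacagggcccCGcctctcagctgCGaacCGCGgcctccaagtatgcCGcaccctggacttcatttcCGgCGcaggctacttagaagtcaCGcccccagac
Zfp395 peak, chr14:65343725-65343936: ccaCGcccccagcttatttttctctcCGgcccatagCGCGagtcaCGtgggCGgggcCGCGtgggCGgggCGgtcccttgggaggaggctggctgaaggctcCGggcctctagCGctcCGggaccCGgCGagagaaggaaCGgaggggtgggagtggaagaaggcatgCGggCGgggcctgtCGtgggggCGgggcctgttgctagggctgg
The Rps24 peak held 16 CpGs in 275 bp, the Phtf2 peak 20 in 244 bp and the Pdxk-ps peak 20 in 258 bp. The Glis2, Wnt7b and Zfp395 peaks held 19 in 208 bp, 17 in 206 bp and 20 in 212 bp. The median over all distal island peaks was 22 CpGs, somewhat more than in each of these peaks, whereas a distal peak outside islands held a median of 3.

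Depth was similar between libraries. Total tags ran from 57.4 to 74.7 M and tags in peaks from 17.5 to 21.1 M, where 1 M stands for 1000000. A median distal island peak held 135 to 173.5 tags per library, against 39 to 49.5 for a distal peak outside islands, so the islands were measured with less counting error. All 1111 had a mean of at least 10 tags and none (0) was lost to a filter. At the promoter of Usp18 itself (chr6:121245804-121246023), oil libraries held 462.9, 418.8 and 436.8 normalised tags and tamoxifen libraries 436.7, 469.1 and 432. These values were taken as no check of the deletion, since a recombined allele may keep its promoter. Of the marker genes of the sorted cells, Kit, the receptor used in the sort, had 760.3 ± 16.3 normalised tags at its TSS in oil and 781.9 ± 66.5 in tamoxifen (SD, n = 3 each). The TSS peak of Cd34, a progenitor surface marker, held 94.9 ± 21 and 268.4 ± 62.2, and that of Flt3, a progenitor receptor, 60.6 ± 6.79 and 100 ± 6.73. That of Elane, a neutrophil granule protease gene, held 27.5 ± 0.919 and 21.7 ± 3.4. No peak assigned to Mpo lay within 1000 bp of its TSS, and 4 of 5 progenitor genes had one. Erythroid genes with a TSS peak included Klf1 (327.2 ± 15.8 in oil and 280.2 ± 30.1 in tamoxifen), Hba-a1 (113 ± 8.47 and 114.4 ± 15.2) and Epor (83.1 ± 5.37 and 77.2 ± 6.36, SD, n = 3 each). Only 1 of 4 T cell genes (Cd3g, 16.7 to 24.6 in oil and 12.9 to 20.1 in tamoxifen), 1 of 3 B cell genes (Cd79a, 85.2 to 105 and 69.7 to 119.4) and 1 of 4 mature myeloid genes (Itgam, 29.8 to 31 and 27.1 to 59.7) had one. The part of such cells in the results below was not tested.

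The sequence of the peaks bore out the island annotation. Distal island peaks had a median GC content of 66.7% and a ratio of observed to expected CpGs of 0.801, against 49% and 0.203 in distal peaks outside islands. The peaks printed above lay under the island median of that ratio, from 0.515 (Rps24) to 0.783 (Zfp395). The median width of distal island peaks was 237 bp against 253 bp. Of the 1111, 789 were intergenic and 322 intronic, and 117 of the latter lay in the first intron of the listed transcript. By distance to the listed TSS, 408 lay within 10000 bp, 375 between 10000 and 30000 bp, 290 between 30000 and 100000 bp and 38 beyond that. The peaks belonged to 787 nearest genes, of which 579 had a single peak. When peaks within 1000 bp were chained, they formed 899 islands, of which 732 held 1 peak and the largest held 10. The limit of 3000 bp falls within a continuum. Just inside it lay a peak 3001 bp from the TSS of Bahcc1, with 52.8 ± 11.7 normalised tags in oil and 49.3 ± 7.36 in tamoxifen, and a peak 3027 bp upstream of Rhof, with 312.6 ± 10.6 and 304.6 ± 36.7. Just outside lay a peak 2999 bp upstream of Setd1b, with 268.1 ± 14.9 and 282.7 ± 31.4, and a peak 2988 bp from the TSS of Mapk11, with 90.5 ± 4.76 and 98.4 ± 11.9 (SD, n = 3 libraries each).

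A large share of these peaks was not away from annotated transcript starts once a fuller annotation was used. Of 1110 peaks on assembled chromosomes, 422 (38%) lay within 500 bp of a transcript start in GENCODE release M21, and 580 (52.3%) lay within 3000 bp of such a start. The shares among distal peaks outside islands were 5.07% and 21%. With the curated transcripts of RefSeq alone, 115 distal island peaks (10.4%) lay within 500 bp of a start, and with its predicted transcripts added, 334 (30.1%). The GENCODE starts within 500 bp belonged to the gene that the table listed as nearest in 174 cases and to another gene in 248. By transcript type, 154 were protein-coding, 71 long intergenic noncoding RNAs and 65 other processed transcripts. Another 42 were retained introns and 23 processed pseudogenes, and the rest were of other types. Whether these starts act as promoters in these cells was not tested. The peak in the last intron of Phtf2, for example, lay 213 bp from a start of the noncoding transcript Gm29254, and 1 of the Foxn3 peaks lay 79 bp from a start of Foxn3 itself. Only 530 peaks had no GENCODE start within 3000 bp, so the name orphan holds for the annotation used by the authors and not for all 1111 peaks. This split was made after the data had been seen, and values are given below for both kinds.

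Distal island peaks were far more accessible than the other distal peaks. Normalised tags per kb of peak had a median of 609.7, 606 and 596.6 in the oil libraries and 638.5, 633.2 and 613.4 in the tamoxifen libraries. Distal peaks outside islands had 148.8, 149.2 and 151.6 in oil and 153.7, 153 and 152.5 in tamoxifen. The lowest island median lay above the highest of the others by a wide margin. On the log2 scale the medians differed by 2.02 ± 0.0288 (SD, n = 6 libraries), a 4.06-fold difference, with the same direction in 6 of 6 libraries and p = 0.031 in an exact two-sided sign-flip test, the smallest p that 6 libraries can give. Island peaks within 3000 bp of a listed TSS (2633) were more accessible still, by 0.436 ± 0.0478 on the log2 scale (n = 6 libraries, exact sign-flip p = 0.031).

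**Figure D1:**
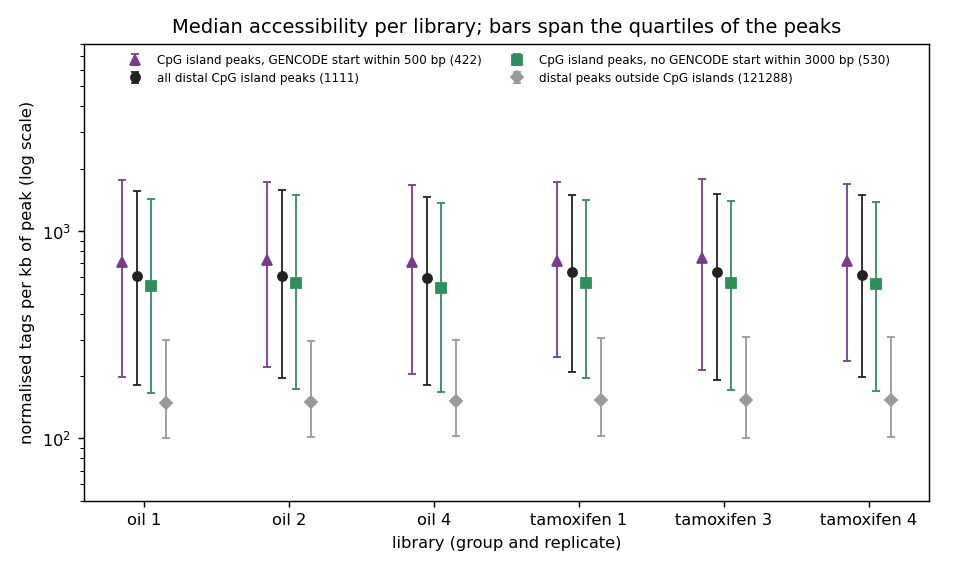
Median normalised tags per kb of peak (vertical axis, log scale) in each of the 6 libraries (horizontal axis) for all distal island peaks, those with and without a nearby GENCODE start, and distal peaks outside islands. Bars span the lower to the upper quartile of the peaks. The island medians lie between 532.7 and 740.4 in every library and the comparison peaks between 148.8 and 153.7.

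The same order held when peaks with an unlisted start nearby were set aside. Peaks within 500 bp of a GENCODE start had a median of 725.3 tags per kb in oil, those with a start 500 to 3000 bp away 485.6, and those with none within 3000 bp 540.9. The first kind exceeded the last by 0.385 ± 0.0201 on the log2 scale, or 1.31-fold, in 6 of 6 libraries (n = 6, exact sign-flip p = 0.031). The middle kind and the last differed by -0.0736 ± 0.0828 (n = 6, exact sign-flip p = 0.094), within the spread between libraries. Peaks with no GENCODE start within 3000 bp still exceeded distal peaks outside islands by 1.87 ± 0.0319, or 3.66-fold (n = 6, exact sign-flip p = 0.031). Intronic island peaks were lower than intergenic ones by -0.421 ± 0.059 on that scale (n = 6, exact sign-flip p = 0.031), with medians of 483.1 and 651.6 tags per kb in oil, while those in the first intron had 633.4.

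GC content went with the level only in part. Among peaks of 55 to 60% GC, distal island peaks (114) had a median of 587.5 tags per kb in oil and distal peaks outside islands (15047) had 150.3. At 60 to 65% the medians were 405.6 (285 peaks) and 168.5 (3261 peaks). At 65 to 70% they were 621.4 (328) and 258.8 (574), and at 70 to 75% 858.2 (214) and 432.7 (145). At 75% GC and above the medians came close, at 659.4 (130) and 609.5 (67). The few peaks outside annotated islands in that last band were CpG-rich too, with a median observed to expected ratio of 0.973 against 0.944. At 70 to 75%, where the levels differed, the ratios were 0.816 outside islands and 0.864 within. These values are a description, and a part of amplification bias towards or against GC-rich fragments was not tested.

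Short consensus sequences of transcription factors were counted on both strands in the central 200 bp of each peak. The GC box GGGCGGGG, bound by SP and KLF factors, stood in 25.6% of distal island peaks, in 2.5% of distal peaks outside islands and in 20.9% of island peaks within 3000 bp of a listed TSS. For the ETS motif CCGGAAG the shares were 5.14%, 1.72% and 5.63%, for the cyclic AMP response element TGACGTCA 2.34%, 0.341% and 1.03%, and for the NRF1 motif GCGCATGCG 1.26%, 0.121% and 0.57%. The YY1 motif AAGATGGCG stood in 0.901%, 0.226% and 1.03%, and the E-box CACGTG in 8.02%, 4.17% and 6.16%. The GC box and the ETS motif both occur in the Glis2 peak printed above, and the ETS motif in the Wnt7b peak and in the Phtf2 peak.

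Motifs of blood cell factors and of AP-1 showed the opposite order. The site of GATA factors, AGATAAG, stood in 1.08% of distal island peaks and in 7.27% of distal peaks outside islands, the RUNX site TGTGGTTT, which the AML1 part of the fusion protein binds, in 0.631% and 2.34%, the PU.1 site GAGGAAGT in 1.26% and 4.27%, and the AP-1 site TGANTCA in 4.05% and 7.4%. The CTCF core letters GGNGGCAG were found at similar shares, 14.1% and 10.9%. A GC-rich window holds GC-rich letters more often by composition alone, and a match does not show binding. Levels differed among island peaks with these letters. Those with the ETS motif (57) had a median of 1462 tags per kb in oil and those with the GC box (284) 1077. The medians were 505.5 for the CTCF core (157), 354.8 for AP-1 (45) and 609.9 for all. The few island peaks with the GATA (12), RUNX (7) and PU.1 (14) sites had 834.6, 805.8 and 543.5.

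The 8 distal island peaks with the most tags per kb in oil had values that overlapped between the groups. They were narrow, which a ranking by tags per kb favours. The peak with the largest mean in oil, 1611 tags near Chd9, was not among them. The Wnt7b peak, 52893 bp upstream of this Wnt ligand gene, held 898, 860.7 and 794.9 normalised tags in oil and 849.5, 909.2 and 800.7 in tamoxifen. The Glis2 peak, 7930 bp upstream of this GLI-similar zinc finger gene, held 925.2, 888.3 and 802 in oil and 845.6, 947.7 and 798.9 in tamoxifen. In both, the groups overlapped throughout. The fitted log2 fold changes were 0.004 (SE 0.12) and -0.012 (SE 0.13), each with an adjusted p near 1 by DESeq2 (0.996 and 0.99). The other 6 lay near Zfp958, Zfp395, Gm17359, Mier3, Ptma and Mir23a, with 3645 to 4388 tags per kb in oil and log2 fold changes of -0.013 to 0.046. These peaks held 3.7 to 4.39 raw tags per base pair. The file header sets a limit of 3 tags per position and does not say whether it holds per strand. Its part in the values at such peaks was not tested.

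The comparison of tamoxifen with oil asked whether accessibility at these islands differed between the groups, which differ in both the drug and the Usp18 allele. A peak was called when its change exceeded 2-fold with an adjusted p below 0.05. By this rule 2 of 1111 distal island peaks (0.18%) were higher and none (0) was lower. Over all distal peaks, DESeq2 called 934 (0.763%) higher and 108 (0.0882%) lower, so calls at a 2-fold change were not more frequent at islands. Without the fold limit, 14 distal island peaks (1.26%) passed the adjusted p, all higher, against a background of 1.23% higher and 0.18% lower. At an unadjusted p under 0.05, 60 (5.4%) were higher and 14 (1.26%) lower, against 6.63% and 3.31% of all distal peaks. With edgeR, 26 were higher and 3 lower at an adjusted p under 0.05, against 2.37% and 0.611% of all distal peaks. At over 2-fold as well, edgeR called 3 higher and 1 lower, against 1.04% and 0.183% of all distal peaks. All 3 tamoxifen values lay above all 3 oil values at 140 peaks (12.6%) and below them at 102 (9.18%), near the background of 12.4% and 10.7%.

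**Figure D2:**
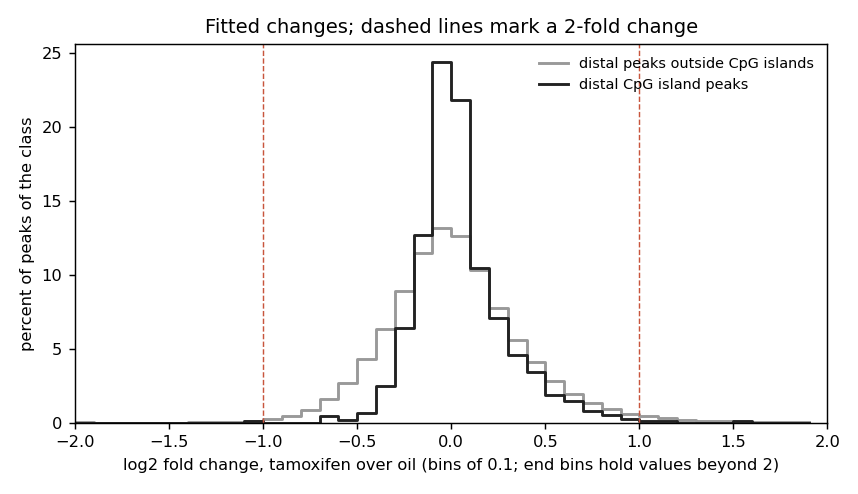
Percent of peaks (vertical axis) in bins of the fitted log2 fold change, tamoxifen over oil (horizontal axis), for the 1111 distal island peaks and the 121288 distal peaks outside islands. The island curve is narrower, with 5% and 95% points at -0.28 and 0.51 against -0.54 and 0.66.

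No shift of the islands as a class was detected. The median log2 fold change was 0.008, against -0.004 for all distal peaks, and its sign turned with the scaling, from -0.002 with GC offsets to 0.024 with all peaks in 1 fit. Distal island peaks held 1.38% ± 0.0239 of all peak tags in oil and 1.39% ± 0.0107 in tamoxifen (SD, n = 3 each, exact two-sided permutation p = 0.8). Their level relative to the other distal peaks was 2.01 ± 0.0304 on the log2 scale in oil and 2.04 ± 0.0254 in tamoxifen (n = 3 each, exact permutation p = 0.3). With 3 libraries a group, neither test could give a p under 0.1. Many single peaks were measured well enough to set a bound. The 95% interval of the fold change lay inside a 2-fold change in either direction for 1014 of 1111 distal island peaks (91.3%), against 73.5% of all distal peaks, and the median SE was 0.18 against 0.29. The 2 kinds of island gave medians close to that of the class. They were 0.003 for the 422 with a GENCODE start within 500 bp and 0.012 for the 530 with none within 3000 bp. Past the adjusted p, 7 (1.66%) and 4 (0.755%) were higher and none (0) lower. The background over all distal peaks was 1.23% higher and 0.18% lower.

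The clearest gain was at an intergenic island on chromosome 14, 288472 bp from the nearest listed TSS, that of the ribosomal protein gene Rps24, and 54410 bp from the nearest GENCODE start. It held 31.2, 34 and 35.1 normalised tags in oil and 106.4, 90.4 and 93.2 in tamoxifen. Every tamoxifen library was more than 2-fold above every oil library. DESeq2 gave a log2 fold change of 1.53 (SE 0.25, adjusted p = 1.2e-06). The called peak in the last intron of Phtf2 on chromosome 5 held 66.8, 79.2 and 68.5 in oil and 132.3, 201.4 and 159.8 in tamoxifen, again without overlap. Its log2 fold change was 1.20 (SE 0.21, adjusted p = 1.17e-05), and 1.03 without tamoxifen replicate 3. Both peaks were called in each of the 6 fits that left out 1 library. The peaks named here and below were picked by p from these values, so separate groups are a description and add no support.

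The island with the next smallest p lay 22332 bp upstream of the pseudogene Pdxk-ps on chromosome 17 and 8 bp from the GENCODE start of Gm17276. Its values were 129.8, 169.3 and 173 in oil and 310.6, 291.7 and 283.7 in tamoxifen, with no overlap. The log2 fold change was 0.91 (SE 0.16, DESeq2 adjusted p = 2.14e-05), just under 2-fold, and the adjusted p stayed under 0.05 without any 1 library (highest 0.0121). A second island near the same pseudogene held 61.3, 57.6 and 45.8 in oil and 105.9, 89.8 and 101 in tamoxifen, with a log2 fold change of 0.85 and an adjusted p of 0.02.

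Pairs of neighbouring peaks were higher at 2 further genes, each pair within 1000 bp and so part of 1 chained island. In the first intron of Foxn3, a forkhead transcription factor gene, the peak at chr12:99392013-99392241 held 182.7, 185 and 193.1 in oil and 305.4, 345.3 and 245.6 in tamoxifen. The peak at chr12:99392880-99393107, 79 bp from a GENCODE start of Foxn3, held 155.4, 137.8 and 164.1 in oil and 245.4, 260.5 and 209.4 in tamoxifen. In both, the groups were separate and tamoxifen replicate 4 was the lowest of its group. The log2 fold changes were 0.67 (SE 0.17) and 0.64 (SE 0.17), with DESeq2 adjusted p values of 0.00747 and 0.0154. Near the pseudogene Tmem181b-ps, adjacent peaks had log2 fold changes of 0.75 and 0.69, with adjusted p values of 0.018 and 0.02.

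**Figure D3:**
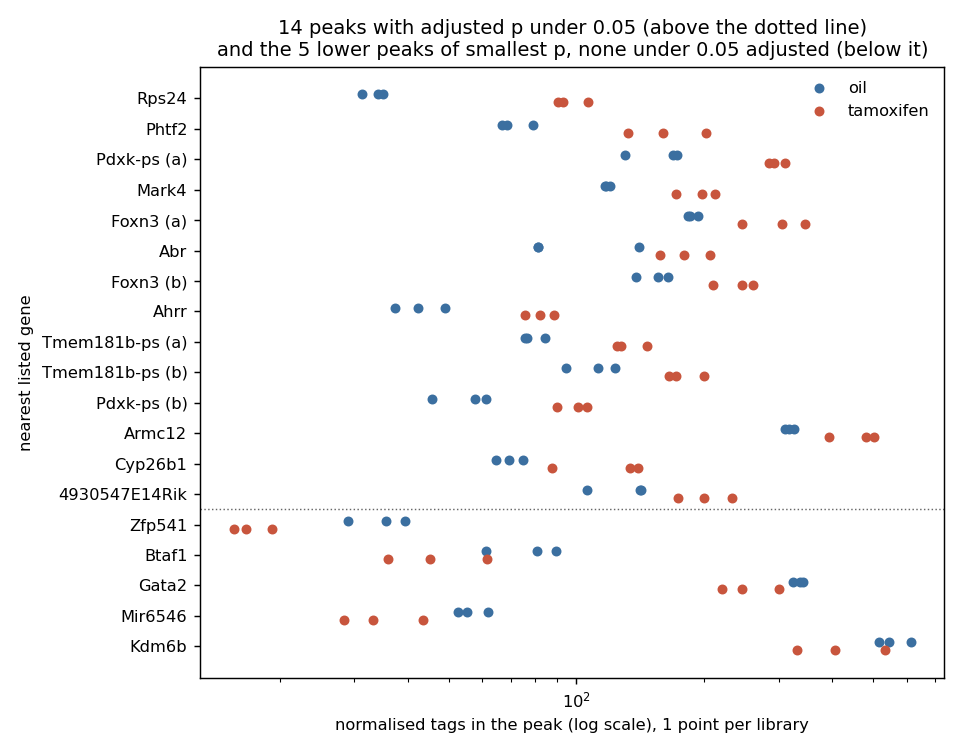
Normalised tags (horizontal axis, log scale) in each library for the 14 distal island peaks with an adjusted p under 0.05 and for the 5 of smallest p among those lower in tamoxifen, named by the nearest listed gene (vertical axis). Letters in parentheses mark peaks that share a gene. The groups are separate in each of the 14, from Rps24 (31.2 to 35.1 in oil, 90.4 to 106.4 in tamoxifen) to 4930547E14Rik (105.8 to 141.7 and 173.5 to 232.5). The 14 were chosen by p on these values, so the separation follows largely from that choice.

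The other 7 of the 14 lay near genes of varied function, with log2 fold changes of 0.53 to 0.94. Ahrr encodes the repressor of the aryl hydrocarbon receptor, and its intronic island held 42.3, 37.4 and 48.9 in oil and 75.7, 88.7 and 82.2 in tamoxifen (log2 fold change 0.94, SE 0.25, DESeq2 adjusted p = 0.0167). Cyp26b1 encodes an enzyme that degrades retinoic acid, and an island 82 bp from one of its GENCODE starts held 64.6, 69.4 and 74.7 in oil and 139.5, 133.9 and 87.7 in tamoxifen (log2 fold change 0.79, SE 0.23, DESeq2 adjusted p = 0.0388). The remaining peaks lay near Abr, a regulator of small GTPases (0.84), Mark4, a microtubule affinity-regulating kinase (0.72), the uncharacterised gene 4930547E14Rik (0.64, 97 bp from a GENCODE start of Crybg3) and Armc12 (0.53, 59 bp from the GENCODE start of E230001N04Rik), and at a second Pdxk-ps island given above. These calls rested on all 6 libraries. Apart from the Rps24, Phtf2 and first Pdxk-ps peaks, the adjusted p of each of the 14 stayed under 0.05 in only 1 of the 6 fits that left out a library, namely without tamoxifen replicate 4, or for Abr without oil replicate 2. Without tamoxifen replicate 4, 30 distal island peaks were higher and 7 lower at an adjusted p under 0.05, whereas without any other library 3 to 4 were higher and none (0) lower. The calls over all distal peaks moved in the same way, with 2.53% higher and 1.64% lower without tamoxifen replicate 4, and 0.256% to 0.528% higher and 0.0417% to 0.0833% lower without any other library.

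No peak lower in tamoxifen passed the adjusted p with DESeq2. The 5 with the smallest p were near Zfp541, Btaf1, Gata2, Mir6546 and Kdm6b. The Zfp541 island, 152 bp from a GENCODE start of this zinc finger gene, held 39.5, 29 and 35.6 in oil and 19.2, 16.7 and 15.6 in tamoxifen (log2 fold change -1.03, SE 0.36, DESeq2 adjusted p = 0.161, edgeR adjusted p = 0.026). Gata2 encodes a transcription factor of blood stem and progenitor cells. A peak 3114 bp upstream of its listed TSS held 337, 323.8 and 341.2 in oil and 245.9, 220.3 and 299.4 in tamoxifen, without overlap (log2 fold change -0.38, SE 0.15, DESeq2 adjusted p = 0.275, edgeR adjusted p = 0.0458). The neighbouring Gata2 peak 4103 bp upstream held 567.6, 544.3 and 491.5 in oil and 575.3, 552.2 and 514.2 in tamoxifen, where the groups overlapped (log2 fold change 0.035). Kdm6b, a demethylase of histone H3 lysine 27, had an island 4483 bp upstream with 612.7, 545.3 and 515.1 in oil and 407, 331.3 and 533.1 in tamoxifen, with tamoxifen replicate 4 among the oil values (adjusted p = 0.324).

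**Figure D4:**
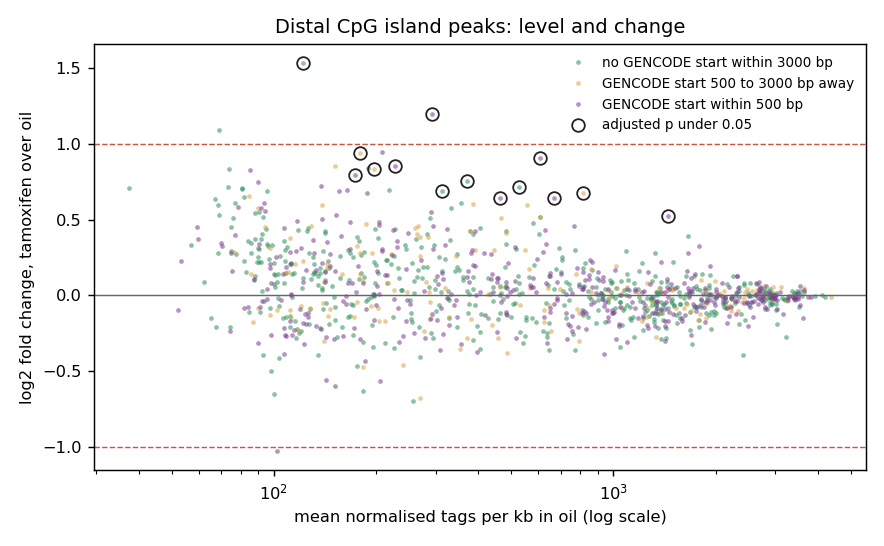
Fitted log2 fold change, tamoxifen over oil (vertical axis), against the mean normalised tags per kb in oil (horizontal axis, log scale) for 1110 distal island peaks, coloured by distance to the nearest GENCODE start. Rings mark the 14 with an adjusted p under 0.05, which have 121.6 to 1449 tags per kb, and the spread of the changes narrows towards the most accessible peaks.

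The median change varied with the level of accessibility, though no test of this passed. The peaks were divided into 4 levels of equal size by their mean normalised tags over all 6 libraries, a division made after the data had been seen. At the lowest level (278 peaks, up to 59.2 tags) the median log2 fold change was 0.112, with 171 positive and 107 negative, whereas 77024 distal peaks outside islands at that level had a median of -0.015. At the second level the medians were 0.056 and 0.018, at the third -0.022 and -0.009, and at the highest -0.012 and -0.016. Across the scalings tried, the median of the lowest level ran from 0.102 to 0.127, and without any 1 library from 0.071 to 0.143. In single libraries, the median deviation of the lowest level, less that of other distal peaks with as many tags, was -0.061, -0.009 and -0.094 on the log2 scale in oil and 0.104, -0.006 and 0.021 in tamoxifen. The groups did not overlap but nearly touched, and the difference of 0.094 had p = 0.1 in an exact permutation test, the smallest possible, and 0.4 when adjusted over the 4 levels.

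**Figure D5:**
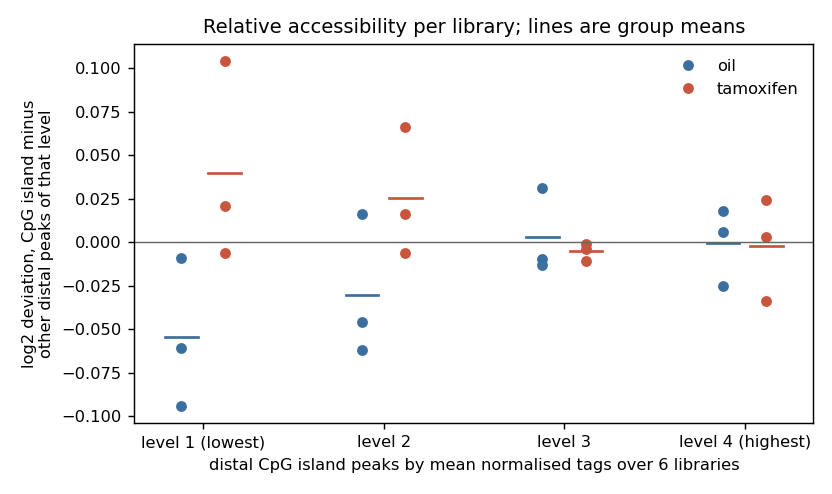
Median log2 deviation of distal island peaks less that of other distal peaks of the same level (vertical axis) in each library, by level of mean accessibility (horizontal axis). Points are libraries and short lines group means. At the lowest level the group means are -0.055 and 0.040.

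Islands near developmental regulators were mostly weakly accessible. The list of homeobox, Pax, Tbx, Wnt and related genes had 69 distal island peaks at 46 genes, among them Pax2, Pax3 and Lhx5 with 4 each, and 53 of the 69 had no GENCODE start within 3000 bp. Their median was 44.9 normalised tags in oil against 152.4 for all distal island peaks, and 40 of the 69 fell in the lowest level. None (0) passed the adjusted p. At an unadjusted p under 0.05, 2 (2.9%) were higher and 1 (1.45%) lower, against 6.63% and 3.31% of all distal peaks. The median log2 fold change was 0.15, with 50 positive and 19 negative. All 1257 distal peaks of the list, at 157 genes and with these 69 included, had a median of 0.104. Of them 786 were positive and 471 negative. No median was taken over the peaks outside islands alone or over the 46 genes alone. Exceptions in level were the Wnt7b peak above, a peak in the first intron of Bmp4, a bone morphogenetic protein gene (563.4 ± 34.8 in oil and 532.8 ± 9.75 in tamoxifen), a Tbx2 peak (377.5 ± 14.8 and 302 ± 36.1, DESeq2 adjusted p = 0.393) and a Barhl2 peak (338.1 ± 26 and 349 ± 19.7, SD, n = 3 each).

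Islands near blood cell regulators were few and gave no call. The haematopoietic list had 20 distal island peaks at 12 genes, with a median log2 fold change of 0.039 and 0 past the adjusted p. At an unadjusted p under 0.05, 0 were higher and 1 (5%, the Gata2 peak above) lower. The background over all distal peaks was 6.63% and 3.31%. Among the most accessible were islands of Vav1, a guanine nucleotide exchange factor of blood cells (576.3 ± 34.8 in oil and 556.2 ± 24.6 in tamoxifen), Id3 (503.8 ± 42.3 and 467.6 ± 18) and Id1 (401.4 ± 18.4 and 366.3 ± 0.413), inhibitors of helix-loop-helix factors (SD, n = 3 each). The Vav1 peak shares a run of 31 bases with another island, so its tags may be split between copies. The Id1 values were lower in tamoxifen without overlap, as at 9.18% of distal island peaks and 10.7% of all distal peaks, and its DESeq2 adjusted p was 0.832. In this list 3 peaks were lower without overlap and 2 higher.

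Among interferon signalling genes, which USP18 restrains, the kinase gene Jak1 had 2 distal island peaks. They held 268.8 ± 19.2 and 201 ± 23.3 in oil and 248 ± 19.8 and 209.6 ± 23.5 in tamoxifen (SD, n = 3 each), with log2 fold changes of -0.12 and 0.063. Neither passed the adjusted or the unadjusted threshold with DESeq2 (adjusted p = 0.886 and 0.954). Imprinted genes had 2, at Cdh15 (543.6 ± 47 and 552.8 ± 37.1) and at Cdkn1c, an inhibitor of cyclin-dependent kinases (125.9 ± 11.1 and 127.3 ± 7.05), and the clustered protocadherins had none (0).

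Several genes had runs of distal island peaks, and 55 had 3 or more. Peaks of a run that lie within 1000 bp of each other belong to 1 chained island. Bcor, whose product belongs to the Polycomb complex that KDM2B brings to CpG islands, was the nearest gene of 26 distal island peaks between chrX:11806946 and 12252685. They ranged from 33.6 to 435.7 normalised tags in oil with a median of 138.2. Their median log2 fold change was -0.039, turning to 0.007 without tamoxifen replicate 4, and 0 passed the adjusted p. At an unadjusted p under 0.05, 1 (3.85%) was higher and 0 lower, against 6.63% and 3.31% of all distal peaks. The table had 6 islands near Cbx8, a chromobox subunit of Polycomb repressive complex 1, with 35.5 to 328.7 tags in oil and a median log2 fold change of -0.017. The 4 peaks near Arid1a, a subunit of the SWI/SNF remodelling complex, were all accessible (482.9 to 591.4 tags in oil) and had log2 fold changes of -0.015 to 0.030.

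Of the 55 genes, 15 had only positive fold changes, 6 only negative ones and 34 both. Over all 1111 distal island peaks, 585 fold changes were positive and 526 negative. No count by gene was made for peaks outside islands, so these numbers are a description. Among the 15, the largest medians were at Abr (3 peaks, 0.55 to 0.86), Mir6417 and Cyp26b1. The 5 peaks in introns of Cyp26b1 had log2 fold changes of 0.18 to 0.79, with 3 under an unadjusted p of 0.05 and 1 past the adjusted p. The 6 peaks near Mir6417 within chr5:52113073-52116224 had 0.14 to 0.83, with 3 under an unadjusted p of 0.05 and none (0) past the adjusted p (lowest 0.124). The medians of 0.55 for Cyp26b1 and 0.59 for Mir6417 stayed between 0.44 and 0.67 without any 1 library. Neighbouring peaks in 1 island share their DNA, and the runs named here were chosen after their values had been seen. In the other direction, the 6 genes with only negative values were Mir6546, Kdm6b, H3f3a, Bach2, Tex14 and Tex44. Mir6546 had 4 peaks (-0.68 to -0.35, with 2 under an unadjusted p of 0.05). Kdm6b had 3 (-0.39 to -0.18, with 1 under it) and H3f3a 3 (-0.32 to -0.13). Of the peaks of these 6 genes, 0 passed the adjusted p (lowest 0.31). The 6 peaks near Rn4.5s, a repeated small RNA gene, ran from -0.65 to 0.030 with a median of -0.31. The 12 near G530011O06Rik, on chromosomes X and Y, ran from -0.47 to 0.054 with a median of -0.19. At these 2 genes 0 peaks were past the adjusted p, and 2 and 1 were under an unadjusted p of 0.05. Of the Rn4.5s and G530011O06Rik peaks, 5 and 6 share a run of 31 bases with another distal island peak. So do 3 of the 4 Mir6546 peaks, all 4 Tex14 peaks, and 1 peak each at Mir6417 and Cyp26b1. At Kdm6b, H3f3a, Bach2 and Tex44 none (0) does. In all, 42 distal island peaks share such a run, and their median log2 fold change was -0.087. The tags of these 42 cannot be assigned to a single copy with certainty.

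The peak lists of the groups differed little at islands. Of the 1111, 983 were in both groups' lists, 56 in the oil list alone and 72 in the tamoxifen list alone. Peaks of a single list were weakly accessible, with medians of 33.3 and 25.8 normalised tags in oil against 182.9 for those in both. Their median log2 fold changes were -0.19 and 0.27, directions that follow from how the lists were made, since the compared libraries were used to call the peaks. None (0) of these 128 passed the adjusted p, and 1 lower and 3 higher had an unadjusted p under 0.05. Over all distal peaks, 84708 of 122399 were in both lists. Of the 22624 in the oil list alone, 88 were lower past the adjusted p and 1525 lower at an unadjusted p under 0.05. Of the 15067 in the tamoxifen list alone, 444 and 2514 were higher by these rules.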

How the data were processed

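The 6 ATAC-seq libraries comprised 3 from oil and 3 from tamoxifen. The authors mapped reads to mm10 with Bowtie2, called peaks with HOMER, merged the peaks and counted tags per merged peak. Tool versions are not given in the sources used here. The deposited values are raw estimated counts of tags in steps of 0.5, not normalised, with a limit of 3 tags per position set in the file header. Tags were rounded to whole numbers and all 122399 distal peaks were fitted with DESeq2 1.42.0 in R 4.3.3 (Wald test, Benjamini-Hochberg adjustment over all distal peaks). Normalised tags are tags divided by DESeq2 size factors. Intervals are the fold change ± 1.96 SE. edgeR 4.0.16 (robust quasi-likelihood) served as an alternative. The fits were tried on simulated data with 200 of 122399 peaks changed by a log2 of 2 in either direction, with the same dispersion at every peak. DESeq2 recovered 195 with 0 false calls, and edgeR 200 with 10. These changes were larger than those described here, so the recovery does not apply to smaller changes. Class values were compared with exact tests over libraries. Sequences and transcript starts came from the mm10 reference (RefSeq and GENCODE release M21). Of 164067 listed TSS distances compared with it, 91.6% agreed within 2 bp.

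Peaks named in the text are the called members, filled to 5 per direction by unadjusted p, the 8 with most tags per kb in oil, up to 4 per gene list, those nearest the distance limit, and the others with an adjusted p under 0.05. The members and lists were chosen with earlier results of these data known. No column of another series was present (0). Some members of the marker and gene lists are not reported here.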

Additional observations from a re-analysis of the deposited data

How the results depend on the processing

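The 2 calls were the same peaks, near Rps24 and Phtf2, with TMM or total-tag size factors, a minimum mean of 10 tags, all peaks in 1 fit, GC offsets, a limit of 10000 bp, islands chained within 1000 bp, and without members that share a 31-base run. edgeR called 4 (Tln2 and Zfp541 added), the absence of a fold limit gave 14, and members with no GENCODE start within 3000 bp gave 1 (both restrictions by GENCODE start and shared runs were chosen after seeing the data). Without 1 library, 2 to 3 were called, with Abr added without oil replicate 2 and Cplx2 without tamoxifen replicate 4. A replicate block (oil and tamoxifen replicates 1 and 4) left 0 calls among the members and 32 among all distal peaks. Same-numbered libraries did not deviate together (correlations of -0.0505 and 0.041), so the numbers were not treated as pairs. The median log2 fold change ran from -0.0251, without oil replicate 4, to 0.0335, without tamoxifen replicate 4. The tamoxifen minus oil difference in the share of tags, 0.00524 percentage points, turned to -0.0239 as a share of distal tags, to -0.0015 for members with no GENCODE start within 3000 bp, and ranged from -0.00828 to 0.0144 without 1 library. None of these passed a test, and the cause was not tested. The log2 level difference from distal peaks outside islands ran from 2.02 to 2.03 without 1 library, where 5 libraries allow no p under 0.0625. For 19 named peaks under 261 alternatives, the direction was kept in 261, while an adjusted p under 0.05 was lost in 70 and gained in 5. These peaks were chosen by p from the same data, so the kept direction was largely settled by that choice.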
